A study of Mus musculus with 14 samples.

Results

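Blood neutrophils of mice that lack the chemokine receptor Cxcr4 in these cells were compared with those of wild-type (WT) mice, both taken at ZT5, where zeitgeber time (ZT) counts the hours since the light came on and ZT5 was a clock time of 12 h. The comparison uses 6 of the 14 libraries of the study: 3 from mice labelled CXCR4f/f x Mrp8Cre (replicates 2, 4 and 5) and 3 from mice labelled WT (replicates 5, 8 and 9). All mice were C57BL/6 males aged 7 to 10 weeks. Their blood was cleared of red cells by lysis, neutrophils were sorted by staining for the surface antigen Ly6G (clone 1A8), and the RNA was amplified with a kit made for very small inputs before library preparation. Mrp8Cre drives the Cre recombinase from the promoter of S100a8, a calgranulin gene of neutrophils and other myeloid cells, so that a floxed gene is removed in that lineage and not in the whole animal. The WT label names no Cre and no floxed allele. The effect of the Cre and that of the lost receptor therefore cannot be told apart in this comparison. Nothing in the labels ties a replicate to an animal of its own. The p-values then reflect how far these samples spread, and that spread may be technical.

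Cxcr4 is the receptor for the chemokine CXCL12, which stromal cells of the bone marrow secrete. Its signal, passed on by Gi proteins, holds neutrophils in the marrow, while Cxcr2 and its ligands draw them out into blood. Cxcr4 is also known to rise on neutrophils as they age in the circulation and to guide their return to the marrow. During maturation neutrophils fill their granules in a set order, and transcripts of granule proteins are mostly made in the marrow and decline before release.

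A second comparison set the same 3 Cxcr4 libraries against the other mutants of the study at ZT5, labelled BMALf/f x Mrp8Cre (3 libraries) and CXCR2f/f x Mrp8Cre (2 libraries), as the difference from the mean of these groups. It holds the Cre constant, and no WT library enters the difference itself. Every library of the study, WT included, enters the shared estimate of spread behind its adjusted p. It is called the Cre-matched comparison here. Its reference groups lack Bmal1 or Cxcr2, and effects of those losses cannot be told apart from that of Cxcr4 in it. The Cxcr4 libraries are in both comparisons, so their values are set side by side and are not independent. Values are the deposited normalized signal per gene, in units where 1 read was worth a constant in each library. Fold changes are differences of mean log2(value + 1), which understates the change of genes of low level. Recovered reads numbered 4613982 to 5594088 in the Cxcr4 mutants and 4802511 to 6678645 in WT. Every adjusted p is from limma with Benjamini-Hochberg adjustment over 11255 genes, and a gene is said to have risen or fallen where it is below 0.05.

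The transcript of the targeted gene was examined first. Cxcr4 (ENSMUSG00000045382, chromosome 1, 128588199 to 128592293, GRCm38) had 26.2, 13.2 and 17.9 in the Cxcr4 mutants, against 268, 485 and 553 in WT. The highest Cxcr4 library lay about an order of magnitude below the lowest WT library. The change was -4.43 against WT (SE 0.26, adjusted p = 2.02e-11) and -4.56 in the Cre-matched comparison (adjusted p = 8.72e-13). Cxcr2, the receptor that opposes it, had 1844, 1642 and 2133 in the Cxcr4 mutants, against 1321, 2219 and 1731 in WT, and these ranges overlap (log2 fold change 0.12, SE 0.18, adjusted p = 0.777; the change was -0.20 after quantile normalization). Of 48 genes of Cxcr4 signalling (the receptor itself, Gi proteins, kinases, arrestins and regulators), 4 rose and 2 fell. The falls include Cxcr4, the targeted gene. Of all genes tested, 4.05% rose and 4.15% fell. The list members that rose, with their log2 fold changes, were Lasp1 (1.25), Arrb2 (0.82), Pik3cg (0.79) and Mapk3 (0.82). Lasp1 encodes an actin-binding protein, Arrb2 encodes beta-arrestin 2, Pik3cg encodes the phosphoinositide kinase that answers to Gi-coupled receptors and Mapk3 encodes ERK1. Besides Cxcr4, Grk3, a kinase of active receptors, fell (-2.95). The number that rose was 1 without Cxcr4 replicate 5, 2 without WT replicate 5 and 7 without WT replicate 8, and the number that fell 1 without Cxcr4 replicate 4 or 5 or WT replicate 9. Within 20 Mb of Cxcr4 on chromosome 1, 12 of 106 tested genes were called, which is 11.3% beside 8.2% of all genes tested. Leaving out 1 library ended the call for Arrb2 (adjusted p 0.0876 without Cxcr4 replicate 5) and Grk3, Mapk3 and Pik3cg (adjusted p 0.0987, 0.138 and 0.0771 without WT replicate 5).

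In all, 456 genes rose and 467 fell in the Cxcr4 mutants, 8.2% of the genes tested. The shares by direction, 4.05% that rose and 4.15% that fell, are the background for every list count against WT. At an unadjusted p under 0.05 there were 2350 genes. The median change over all genes was -0.11 on the log2 scale, and 0.03 after quantile normalization. The Cre-matched comparison called 423 higher and 374 lower, 7.08% of the same genes (3.76% and 3.32%). These are only in part the same calls. Of the 456 genes that rose against WT, 264 were also called there (57.9%), and of the 467 that fell, 176 (37.7%). The change there had the opposite sign for 7 of the genes that rose and 31 of those that fell. Members of the azurophil, specific and gelatinase granule lists and of the immediate early list made up only a small share of these calls. Outside those lists 434 genes rose and 448 fell, and leaving out the marker lists of other blood cells as well left 433 and 411. Groups did not overlap for 450 of the genes that rose and 441 of those that fell, while 26.2% of all genes tested had groups that do not overlap. The call counts depend on single libraries, and where a library left out ends the call of a named gene, the one that gives the largest adjusted p is named with that p. They were 607 without Cxcr4 replicate 4 (299 higher, 308 lower) and 596 without Cxcr4 replicate 5 (292 and 304), and the number that fell was 298 without WT replicate 9. The Cre-matched rises were 262 without Cxcr4 replicate 4 and 254 without Cxcr4 replicate 5.

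Genes that rose were mostly abundant ones, with a median value of 247 in the Cxcr4 mutants against 105 in WT (13.5 and 16.9 for all genes tested), and their median change was 1.18 on the log2 scale. Genes that fell had a median of 9.69 in the Cxcr4 mutants against 54.5 in WT, and the median size of their change was 2.47. Only 92 genes rose by more than 2 on the log2 scale, while 276 fell by more than that. Of the genes that fell, 29 had no read in any Cxcr4 library, and with these at a floor of 3 reads per library the median size was 2.43 and no list median given here moved by more than 0.24. Protein-coding genes made up 96.1% of the genes that rose and 94.4% of those that fell, against 87.1% of all tested. WT replicate 5 stood apart from the other WT libraries: it was the highest WT library for 61.5% of the genes that fell, against 40.3% of all genes tested. Without it, 300 of the 456 and 228 of the 467 genes were still called.

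**Figure D1:**
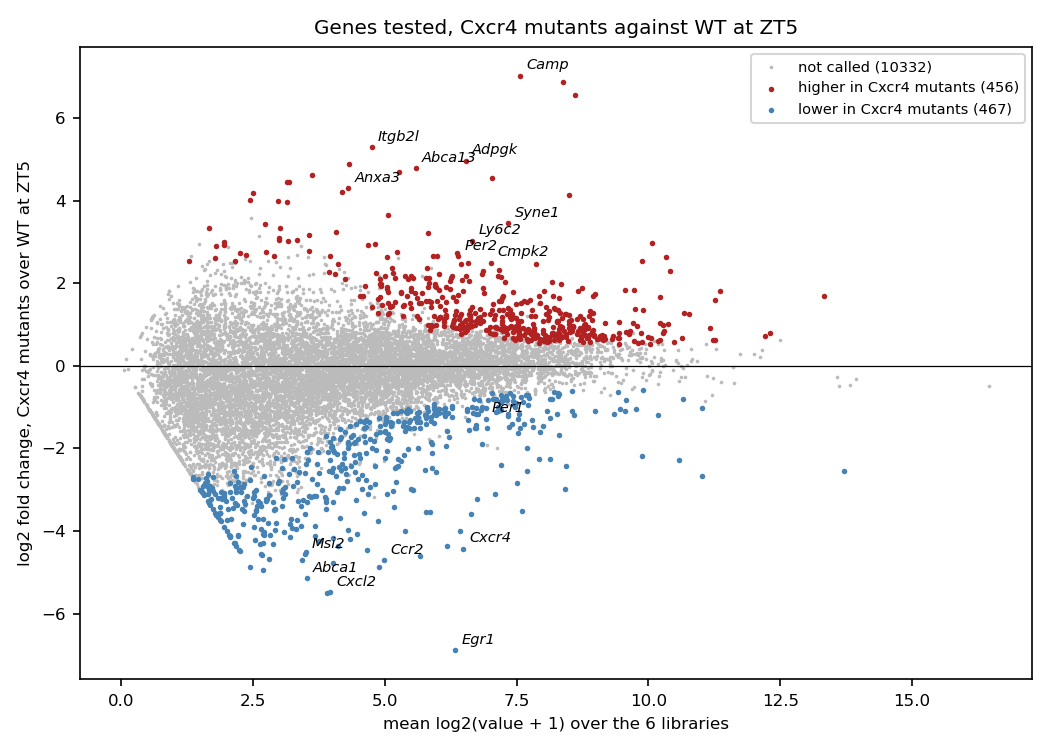
Log2 fold change, Cxcr4 mutants over WT at ZT5, against the mean log2(value + 1) over the 6 libraries, with 1 point per gene tested. The 456 genes that rose (red) lie mainly at middle and high levels and the 467 that fell (blue) reach further from 0 at low levels, where the sloping lower edge is set by genes with no read in the Cxcr4 mutants.

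Markers of other blood cells moved with the groups and stand here beside every gene that fell. The summed value of 17 B cell markers was 172, 247 and 132 in the Cxcr4 mutants, against 4451, 543 and 1207 in WT. WT replicate 5 was the highest by far, and the groups did not overlap. For 18 monocyte and macrophage markers the sum was 793, 803 and 776 in the Cxcr4 mutants, against 3005, 1639 and 2235 in WT. For 18 red cell markers it was 4601, 14762 and 7292 in the Cxcr4 mutants, against 22353, 57266 and 69501 in WT, again with no overlap. In the 5 libraries of the Bmal1 and Cxcr2 groups the sums ranged over 306 to 461 for B cell, 884 to 998 for monocyte and 62338 to 123387 for red cell markers. Among B cell markers 12 of 17 fell against WT (median log2 fold change -3.92) and 1 in the Cre-matched comparison, with H2-Eb1 at -4.00 and Cd74 at -4.01 against WT. Among monocyte markers 13 of 18 fell against WT (median -2.69) and 3 in the Cre-matched comparison, and 1, Ly6c2, rose in both. Among red cell markers 11 of 18 fell against WT (median -2.35) and 15 in the Cre-matched comparison. Alas2, the first enzyme of haem synthesis in red cell precursors, changed by -2.84, Fech, the last enzyme of that path, by -2.99, and the anion exchanger Slc4a1 by -3.95. The sum over 15 platelet markers was 299, 372 and 226 in the Cxcr4 mutants, against 157, 1054 and 1219 in WT, with WT replicate 5 below every Cxcr4 library and the other two WT libraries above them. Of these markers 0 were called by limma at a median of -2.01, with 8 at an unadjusted p under 0.05, 1 called by edgeR and 7 by DESeq2; Pf4 was at -2.67 and Itga2b at -2.31. The number of platelet markers that fell was 8 without WT replicate 5. Single members of the T and NK cell list (Cd2, -3.95), the eosinophil, basophil and mast cell list (Siglecf, -1.31) and the endothelial list (Pecam1, -2.61) fell. Those counts of 1 became 0 without Cxcr4 replicate 2 or 4 or WT replicate 5 for the T and NK cell list, 0 without any 1 of the 6 libraries for the eosinophil list and 2 without WT replicate 5 for the endothelial list. When B cell marker level (mean log2) entered the fit as a covariate 155 genes were called, with monocyte marker level 37 and with red cell marker level 136, but each marker level differs with the group, so that these fits also remove part of the group difference. In a bulk sample fewer cells of a type and less RNA per cell cannot be told apart. With 1 library left out the test was no longer passed by Cd2 (adjusted p 0.111 without WT replicate 5) and Siglecf (adjusted p 0.143 without WT replicate 8).

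The defining markers of neutrophils were abundant in both groups. The summed value of 29 neutrophil identity genes was 40868, 49983 and 47901 in the Cxcr4 mutants, against 16533, 27675 and 24938 in WT, and no library of a group reached the other. In this list 11 rose and 3 fell, with a median log2 fold change of 0.36. S100a8 rose by 1.8 and S100a9, its partner in calprotectin, by 1.70. The antimicrobial protein gene Pglyrp1 rose by 1.98 and Wfdc21 by 2.33. The falls were Wfdc17 (-3.75), Il1b (-1.01) and Trem1 (-0.66), of which Il1b is a cytokine gene and Trem1 a receptor gene. Ly6g, the antigen used for the sort, had 182, 256 and 202 in the Cxcr4 mutants, against 25.7, 38.6 and 29.7 in WT, so that no Cxcr4 library was as low as any WT library (log2 fold change 2.73, SE 0.41, adjusted p = 7.14e-05). Ly6g and Ly6c2 belong to a family of close copies, so reads may be split between its members. The Cre-matched comparison gave 8 higher and 8 lower members of the identity list, with a median of -0.17. Without a given library there was no call for Trem1 (adjusted p 0.0856 without Cxcr4 replicate 5).

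**Figure D2:**
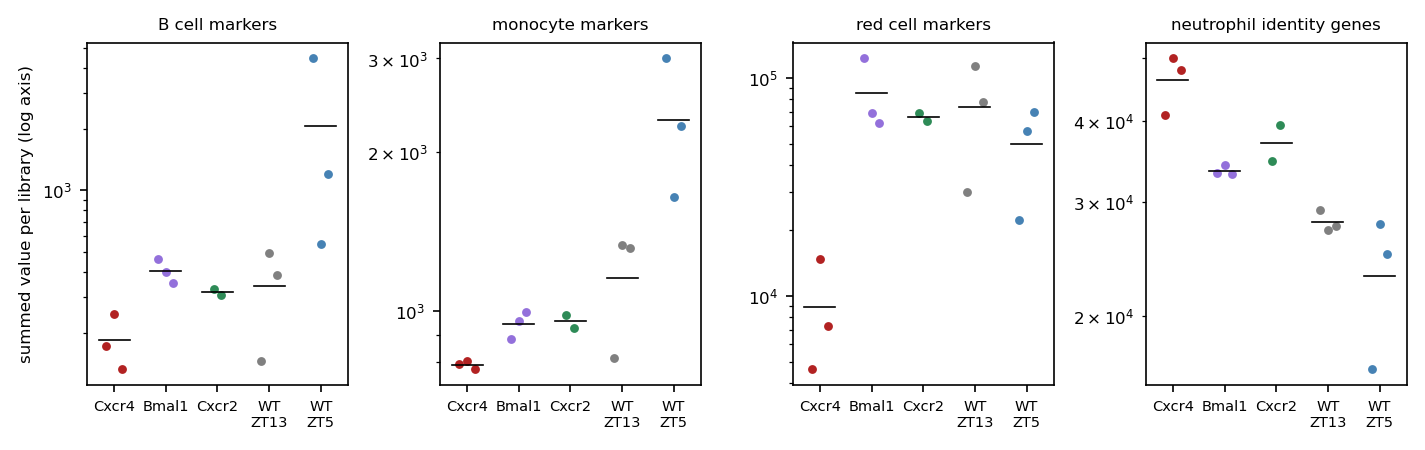
Summed deposited value of 4 gene lists in each of the 14 libraries (points, log axis) with the group mean (line); all mutants and the right-hand WT group were taken at ZT5. The Cxcr4 mutants have the lowest sums of red cell markers, 4601 to 14762, and the highest sums of neutrophil identity genes, 40868 to 49983.

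Granule and immediate early genes are given briefly. Of 15 specific granule genes 12 rose (median 2.38), led by Camp (7.03), Ltf (6.88), Ngp (6.57) and Cd177 (4.13). Of 13 gelatinase granule genes 8 rose (median 1.40), among them the collagenase gene Mmp8 (2.97), the gelatinase gene Mmp9 (1.26) and Retnlg (2.53). Of 9 genes listed for azurophil granules and the control of their proteases, Lyz2 (1.58) and Serpinb1a (2.65) rose and Ctsc fell (-3.25). The median of that list was 0.10. Of 24 immediate early genes 18 fell (median -1.46), and 15 fell in the Cre-matched comparison. Egr1 changed by -6.89, Fosb by -3.58, Fos by -2.18 and Junb by -1.5. The number that fell was 11 without Cxcr4 replicate 4. A library left out ended the call of Ctsc (adjusted p 0.0527 without Cxcr4 replicate 4).

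The largest rises outside those lists came next, beginning with genes of adhesion and the cell surface. They were taken only from called genes whose groups do not overlap, so the lack of overlap follows from that choice. Itgb2l (ENSMUSG00000000157, chromosome 16, 96422288 to 96443619), an integrin beta chain of mouse neutrophils related to CD18, had 134, 202 and 175 in the Cxcr4 mutants, against 1.27, 4.43 and 5.36 in WT (log2 fold change 5.30, SE 0.93, adjusted p = 0.000432). All 3 Cxcr4 libraries lay far above the WT libraries. Mcam, which encodes the adhesion molecule CD146, had 101, 141 and 113 in the Cxcr4 mutants, against 10.0, 12.5 and 4.74 in WT (log2 fold change 3.64, SE 0.62, adjusted p = 0.000305). Ncam1, a neural cell adhesion molecule, had 52.9, 61.2 and 41.3 in the Cxcr4 mutants, against 2.03, 3.38 and 11.3 in WT (log2 fold change 3.25, SE 0.75, adjusted p = 0.00598). Groups did not overlap for either, and on the log2 scale WT replicates differed among themselves more than the Cxcr4 mutants did. Ly6c2, the gene of the surface antigen Ly6C, had 265, 319.8 and 280.4 in the Cxcr4 mutants, against 37.6, 32.1 and 33.2 in WT (log2 fold change 3.03, SE 0.28, adjusted p = 4.71e-08), with little spread in either group. All of these rose in the Cre-matched comparison as well: Itgb2l by 6.12, Mcam by 4.51, Ncam1 by 3.14 and Ly6c2 by 2.57.

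Receptors formed the next set. Acvrl1, which encodes the TGF-beta family receptor ALK1, had 67.5, 76.5 and 91.5 in the Cxcr4 mutants, against 6.48, 5.28 and 0.618 in WT (log2 fold change 4.22, SE 0.94, adjusted p = 0.00488). Ffar2, the receptor for short-chain fatty acids, had 29.6, 48.4 and 27.0 in the Cxcr4 mutants, against 1.53, 0 and 3.30 in WT (log2 fold change 3.98, SE 1.01, adjusted p = 0.0122). All WT libraries were below all Cxcr4 libraries for both genes. Ffar2 did not pass without WT replicate 8 (adjusted p = 0.0628). Mrgpra2b, a Mas-related receptor of the G protein-coupled class with a near copy in the genome, had 195, 108 and 238 in the Cxcr4 mutants, against 66.5, 93.9 and 0 in WT. Of the WT libraries 1 had no read of it and the other two lay just below the Cxcr4 mutants (log2 fold change 3.21, SE 0.94, adjusted p = 0.0319), and the change in the Cre-matched comparison was 1.14 (adjusted p = 0.497). Lbp, which encodes the lipopolysaccharide-binding protein, had 26.0, 31.9 and 26.0 in the Cxcr4 mutants, against 1.40, 2.96 and 3.50 in WT (log2 fold change 3.05, SE 0.89, adjusted p = 0.0322), and without WT replicate 5 its adjusted p was 0.126. Acvrl1, Ffar2 and Lbp rose by 5.07, 4.25 and 3.16 in the Cre-matched comparison. Not all calls held without 1 library, as for Mrgpra2b (adjusted p 0.161 without WT replicate 9).

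Enzymes, transporters and structural proteins completed the list. Adpgk (ENSMUSG00000025236, chromosome 9, 59291558 to 59324052), the ADP-dependent glucokinase that phosphorylates glucose with ADP in place of ATP, had 444, 615 and 507 in the Cxcr4 mutants, against 23.4, 9.29 and 17.1 in WT (log2 fold change 4.97, SE 0.54, adjusted p = 8.05e-07). It had 18.7, 11.9 and 8.87 in the Bmal1 group and 4.19 and 27.1 in the Cxcr2 group. No other library of the study came near these levels. Abca13 (ENSMUSG00000004668, chromosome 11, 9191942 to 9684259), a very large transporter of the ABC class, had 195, 316 and 259.5 in the Cxcr4 mutants, against 8.01, 7.39 and 9.06 in WT (log2 fold change 4.79, SE 0.52, adjusted p = 7.67e-07). Anxa3, an annexin that binds phospholipids in the presence of calcium, had 81.5, 73.8 and 108 in the Cxcr4 mutants, against 3.43, 1.27 and 7.62 in WT (log2 fold change 4.31, SE 0.57, adjusted p = 1.45e-05). Sept5, a septin of the membrane skeleton, had 89.1, 139.8 and 99.7 in the Cxcr4 mutants, against 8.39, 4.22 and 0 in WT (log2 fold change 4.89, SE 0.69, adjusted p = 3.17e-05). For these genes the highest WT library stayed well below the lowest Cxcr4 library. Syne1, which encodes nesprin-1, a spectrin-repeat protein that ties the nucleus to the cytoskeleton, had 566, 564 and 486 in the Cxcr4 mutants, against 54.4, 37.8 and 54.0 in WT (log2 fold change 3.46, SE 0.32, adjusted p = 6.95e-08). Lhfpl2, a membrane protein gene, had 29.8, 22.8 and 22.1 in the Cxcr4 mutants, against 2.80, 0.211 and 2.47 in WT (log2 fold change 3.35, SE 0.91, adjusted p = 0.0201), and its groups lay far apart. Panct2, annotated as an antisense RNA, had 36.6, 45.6 and 24.6 in the Cxcr4 mutants, against 0, 7.39 and 6.18 in WT (log2 fold change 3.18, SE 0.88, adjusted p = 0.0227). Use of strand in the counting is not stated, so reads of Panct2 and of a gene on the other strand cannot be told apart. Lhfpl2 did not pass without WT replicate 8 (adjusted p = 0.0886), nor Panct2 without WT replicate 5 (0.181). Changes in the Cre-matched comparison were 5.34 for Adpgk, 3.39 for Abca13, 2.68 for Anxa3, 3.36 for Sept5 and 3.23 for Syne1, all called.

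**Figure D3:**
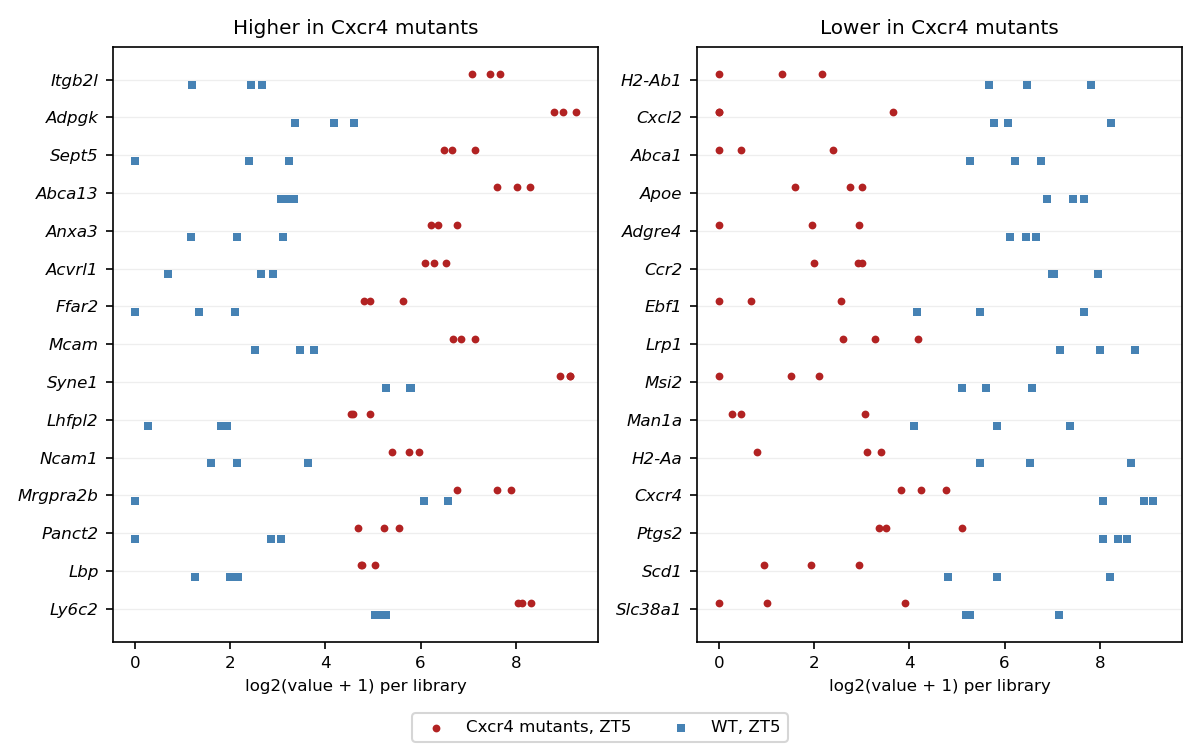
Log2(value + 1) in each library for the 15 genes of largest rise (left) and the 15 of largest fall (right) under the naming rule; circles are the 3 Cxcr4 mutant libraries and squares the 3 WT libraries at ZT5. The naming rule takes only genes whose groups do not overlap, so no gene has a Cxcr4 library among its WT libraries. Mrgpra2b shows 1 WT library at 0 apart from the other 2.

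Of the 15 genes of largest fall, Cxcr4 is the targeted gene, and the 6 described next fell in both comparisons. All 15 were likewise taken only where the groups do not overlap. Cxcl2 (ENSMUSG00000058427, chromosome 5, 90903871 to 90905938), a chemokine that recruits neutrophils through Cxcr2, had 11.6, 0 and 0 in the Cxcr4 mutants, against 299, 66.1 and 54.2 in WT (log2 fold change -5.48, SE 0.90, adjusted p = 0.000225). Of the Cxcr4 libraries 2 had no read of Cxcl2, and the third was still below every WT library. Ptgs2 (ENSMUSG00000032487, chromosome 1, 150100031 to 150108227), the inducible cyclooxygenase, had 33.6, 10.4 and 9.30 in the Cxcr4 mutants, against 382, 268 and 335 in WT (log2 fold change -4.35, SE 0.34, adjusted p = 2.07e-09). It was high in every other group, with 630.1, 426 and 291 in the Bmal1 group and 439.9 and 355 in the Cxcr2 group. Abca1 (ENSMUSG00000015243, chromosome 4, 53030787 to 53159895), which exports cholesterol to lipoproteins, had 0, 4.27 and 0.372 in the Cxcr4 mutants, against 108, 37.8 and 73.5 in WT (log2 fold change -5.14, SE 0.55, adjusted p = 6.6e-07). Apoe, the apolipoprotein that accepts it, had 6.99, 2.03 and 5.77 in the Cxcr4 mutants, against 172, 117 and 203 in WT (log2 fold change -4.88, SE 0.34, adjusted p = 2.82e-10). Each Cxcr4 library lay below each WT library for these genes. Msi2, an RNA-binding protein of blood stem and precursor cells, had 0, 3.25 and 1.86 in the Cxcr4 mutants, against 95.1, 33.4 and 47.6 in WT (log2 fold change -4.56, SE 0.70, adjusted p = 9.12e-05). Man1a, a mannosidase of the Golgi that trims N-glycans, had 0.200, 7.32 and 0.372 in the Cxcr4 mutants, against 164, 16.0 and 56.0 in WT (log2 fold change -4.51, SE 0.82, adjusted p = 0.000639). In the Cre-matched comparison the changes were -4.50 for Cxcl2, -4.69 for Ptgs2, -4.06 for Abca1, -3.95 for Apoe, -2.82 for Msi2 and -2.57 for Man1a, all of them called. Whether RNA of other cells had a part in these 6 falls was not tested.

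The rest of that list were mostly markers of other cells or did not pass in the Cre-matched comparison. The class II genes H2-Ab1 and H2-Aa, which present antigen on B cells and macrophages, changed by -5.49 and -4.45. H2-Ab1 had 0, 3.46 and 1.49 in the Cxcr4 mutants, against 223, 49.8 and 88.2 in WT. Ebf1, a transcription factor of the B lineage, had 0.599, 4.88 and 0 in the Cxcr4 mutants, against 204, 16.9 and 43.7 in WT, with WT replicate 5 the highest by far. Ccr2, the chemokine receptor of inflammatory monocytes, had 6.99, 6.51 and 2.98 in the Cxcr4 mutants, against 248, 126 and 131 in WT. Adgre4, a monocyte adhesion receptor, had 0, 2.85 and 6.70 in the Cxcr4 mutants, against 100.2, 68.4 and 86.5 in WT. Neither gene had a Cxcr4 library near the WT libraries. Lrp1, an endocytic receptor of macrophages, changed by -4.61, Scd1, a fatty acid desaturase, by -4.35 and Slc38a1, a glutamine transporter, by -4.24. Cre-matched changes were -2.89 for H2-Ab1 (adjusted p = 0.0227), -1.66 for H2-Aa, -0.37 for Ebf1, 0.02 for Ccr2, -2.32 for Adgre4, -1.06 for Lrp1, -1.14 for Scd1 and -1.83 for Slc38a1, and only H2-Ab1 passed. Scd1 did not pass against WT without WT replicate 5 (adjusted p = 0.0597). The part of the other cells' RNA in these falls was not tested.

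Called interferon-stimulated genes mostly rose in the Cxcr4 mutants. Type I interferon acts through a receptor and transcription factors that bind a repeated GAAA element in the promoters of these genes. Of 35 members tested, 13 rose and 1 fell, with a median log2 fold change of 1.02, against -0.11 over all genes tested. Positive changes numbered 32 of the 35, against 4984 of all 11255 genes tested. The median was 0.99 after quantile normalization. Of the same genes in the Cre-matched comparison 7 rose and 2 fell, with a median of 0.65, against 0.02 over all genes. The number that rose against WT was 8 without Cxcr4 replicate 2 or 5 and 21 without Cxcr4 replicate 4, and the number that fell 2 without WT replicate 5. Cmpk2, a mitochondrial nucleotide kinase, had 305, 258 and 359.6 in the Cxcr4 mutants, against 56.4, 43.5 and 60.8 in WT (log2 fold change 2.50, SE 0.26, adjusted p = 5.13e-07), and its lowest Cxcr4 library lay several times above its highest WT library. Oas3, an oligoadenylate synthetase that senses double-stranded RNA, had 2064, 932 and 1841 in the Cxcr4 mutants, against 501, 721 and 587 in WT (log2 fold change 1.35, SE 0.23, adjusted p = 0.000355). Ifit3, which binds viral RNA with its relatives and has a close copy, had 232, 40.9 and 179 in the Cxcr4 mutants, against 33.4, 27.7 and 32.8 in WT (log2 fold change 1.91, SE 0.44, adjusted p = 0.00667). Rsad2, which encodes viperin, had 821, 404 and 768 in the Cxcr4 mutants, against 225, 371 and 366 in WT (log2 fold change 1.02, SE 0.24, adjusted p = 0.00714), and groups did not overlap for any of these. Cxcr4 replicate 4 was the lowest of its group for all 4 genes, and for Ifit3 and Rsad2 it lay close to the WT libraries. Rtp4 rose by 1.68, the sensor kinase gene Eif2ak2 by 1.67, Irf7, a factor that amplifies the response, by 1.12 and Ifitm3, which blocks viral entry, by 0.92. Ifitm1, a neighbour and relative of Ifitm3, went the other way with 39.5, 43.3 and 55.4 in the Cxcr4 mutants, against 269, 455 and 522 in WT (log2 fold change -3.10, SE 0.39, adjusted p = 6.79e-06), with a change of -2.74 in the Cre-matched comparison. In that comparison Cmpk2 rose by 1.37 and Oas3 by 0.72, while Ifit3 (0.94), Rsad2 (-0.21) and Rtp4 (0.60) did not pass. Leaving out 1 library ended the call for Ifit3 and Rsad2 (adjusted p 0.0729 and 0.0599 without Cxcr4 replicate 2) and Irf7 (adjusted p 0.267 without Cxcr4 replicate 5).

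The promoters of 3 of these genes are shown to place that element, as the 250 bases before the RefSeq start in GRCm38.p6, 5′ to 3′ on the strand of the gene, with capitals for each match to a pair of GAAA copies set apart by any 2 bases, or to the reverse complement of that. The windows are chr19:34583279-34583528 (plus strand), chr12:26456453-26456702 (minus strand) and chr5:120777660-120777909 (minus strand).
Ifit3: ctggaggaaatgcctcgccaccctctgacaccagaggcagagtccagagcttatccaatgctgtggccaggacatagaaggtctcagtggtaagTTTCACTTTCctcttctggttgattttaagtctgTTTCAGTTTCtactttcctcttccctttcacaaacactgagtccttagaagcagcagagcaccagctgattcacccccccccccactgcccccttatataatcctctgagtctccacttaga
Rsad2: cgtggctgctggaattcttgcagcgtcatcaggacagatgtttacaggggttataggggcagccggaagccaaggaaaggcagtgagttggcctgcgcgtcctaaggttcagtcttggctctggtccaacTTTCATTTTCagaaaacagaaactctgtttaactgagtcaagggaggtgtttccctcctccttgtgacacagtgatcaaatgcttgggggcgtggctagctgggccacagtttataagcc
Oas3: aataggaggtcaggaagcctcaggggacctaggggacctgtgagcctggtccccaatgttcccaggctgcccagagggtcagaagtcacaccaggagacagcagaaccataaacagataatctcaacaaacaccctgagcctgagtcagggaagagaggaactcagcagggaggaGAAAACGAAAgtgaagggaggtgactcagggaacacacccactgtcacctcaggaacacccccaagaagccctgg
The matches begin 156 and 122 bases before the start in Ifit3, 120 in Rsad2 and 75 in Oas3.

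Across 8189 tested genes with a RefSeq window of 300 bases (250 before to 50 after the start), this element was found on either strand in 4.44% of the windows of genes that rose, 3.13% of those that fell and 3.39% of all. Within the interferon list it was in 6 of 10 windows of genes that rose and in 10 of 16 of those that did not. Windows of genes that rose and that fell held the AP-1 letters TGANTCA in 8.06% and 6.53%, against 5.25% of all windows. For the E-box CACGTG, which Bmal1 and Clock bind, the shares were 9.17% and 11.9%, against 10.3% of all. The letters TATAAA were in 11.7% and 11.1%, against 7.05% of all, and TTGCNNAA of the C/EBP site in 10.6% and 9.94%, against 8.72%. All were searched on both strands, and matches of different motifs may overlap. A match describes letters in the window and not binding.

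Called genes of the actin skeleton and cell movement mostly rose. Of 43 tested, 16 rose and 1 fell, with a median log2 fold change of 0.46, and 39 of the 43 changes were positive. Of all 11255 genes tested, 4984 had a positive change. The number that rose was 8 without Cxcr4 replicate 4 or 5, and the number that fell 0 without Cxcr4 replicate 4 or 5 or WT replicate 5. After quantile normalization it was 8, at a median of 0.27. In the Cre-matched comparison 8 rose and 1 fell, with a median of 0.23. Arhgdib, an abundant gene of blood leukocytes, had 1217, 1705 and 1283 in the Cxcr4 mutants, against 428, 539 and 644 in WT (log2 fold change 1.39, SE 0.18, adjusted p = 9.87e-06). Vcl, which encodes vinculin, the link between integrins and actin, had 276, 519 and 359.8 in the Cxcr4 mutants, against 97.7, 119 and 159 in WT (log2 fold change 1.59, SE 0.26, adjusted p = 0.000176). Capg, an actin-capping protein, had 143, 177 and 156 in the Cxcr4 mutants, against 50.5, 25.8 and 34.2 in WT (log2 fold change 2.12, SE 0.37, adjusted p = 0.000461). None of these had overlapping groups. Flna, the filament cross-linker filamin A, rose by 0.91, and the 1 member that fell was Evl (-4.22), an Ena/VASP protein. Among 25 scaffold and nuclear linker genes, 3 rose with log2 fold changes of Syne1 (3.46), Sun2 (0.82) and Syne2 (1.91), and 3 fell, Epb41 (-1.68), Syne3 (-1.81) and Huwe1 (-0.99). Sun2 spans the inner nuclear membrane and binds nesprins, and Epb41 is a red cell membrane protein. Against the mean of the Bmal1 and Cxcr2 groups 8 rose and 2 fell, with a median of 0.36. With 1 library left out the test was no longer passed by Syne3 (adjusted p 0.0564 without Cxcr4 replicate 2) and Evl and Huwe1 (adjusted p 0.103 and 0.15 without WT replicate 5).

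Receptors that guide neutrophils and the molecules by which they attach followed. Of 19 chemoattractant receptors, 4 rose and 0 fell. In the Cre-matched comparison 5 of them rose and 5 fell. Fpr2, a receptor for formylated peptides, had 457, 549 and 562 in the Cxcr4 mutants, against 112, 203 and 181 in WT (log2 fold change 1.69, SE 0.21, adjusted p = 4.86e-06). Fpr1, its better known relative, rose by 1.40, Ffar2 by 3.98 and Ltb4r1, the leukotriene B4 receptor, by 1.48, and the number that rose was 2 without Cxcr4 replicate 4 or WT replicate 8. The number that fell was 2 without Cxcr4 replicate 2 or WT replicate 5. Of 28 selectins, ligands and integrins 7 rose, Cd24a (1.66), Itgam (1.28), Itgb2l (5.30), Ceacam1 (1.17), Cd63 (1.18), Itgal (0.60) and Cd44 (0.63), and Pecam1 (-2.61), Vcan (-3.76) and Itgb1 (-1.51) fell. The count of rises was 4 without Cxcr4 replicate 4 or WT replicate 5. The Cre-matched comparison gave 7 rises and 3 falls in this list. Itgam, the alpha chain of the complement receptor Mac-1, had 2493, 2751 and 2394 in the Cxcr4 mutants, against 754, 1218 and 1241 in WT (log2 fold change 1.28, SE 0.19, adjusted p = 6.18e-05). All Cxcr4 libraries were above all WT libraries. Of 7 subunits of the NADPH oxidase, which makes superoxide, 4 rose, Ncf1 (1.83), Cybb (1.84), Cyba (0.88) and Ncf4 (0.81). Ncf1 encodes p47phox, and its values were 1231, 1628 and 1432 in the Cxcr4 mutants, against 427, 427 and 351 in WT. The count was 2 without Cxcr4 replicate 5. The median of the oxidase list was 0.81 against WT and 0.21 in the Cre-matched comparison, where 2 rose and 0 fell. The Bmal1 and Cxcr2 groups had medians of 0.54 and 0.20 against the same WT libraries. Pattern receptors and their adaptors went both ways, with Clec4a2 (2.06), Clec5a (1.19) and Tlr8 (0.86) higher and Clec7a (-1.05), Tlr9 (-2.92), Trem1 (-0.66), Nlrp3 (-0.69) and Aim2 (-1.36) lower of 39. The number that fell was 2 without Cxcr4 replicate 4 or 5 or WT replicate 8 and 3 without Cxcr4 replicate 2. In the Cre-matched comparison 1 pattern receptor gene rose and 7 fell. Clec7a encodes the beta-glucan receptor Dectin-1, and Nlrp3 and Aim2 are inflammasome sensors. Of 24 Fc receptor and ITAM genes, Cd33 (1.03), Fcgr3 (0.97) and Cd300lb (0.62) rose and Sirpb1a (-2.87), Csk (-0.70) and Cd300ld (-0.62) fell. Their counts were 5 without WT replicate 8 for rises and 1 without Cxcr4 replicate 2 or 4 or WT replicate 8 or 9 for falls. Against the mean of the Bmal1 and Cxcr2 groups 1 rose and 4 fell. Without a given library there was no call for Aim2, Csk, Itgal and Tlr8 (adjusted p 0.188, 0.109, 0.106 and 0.187 without Cxcr4 replicate 4), Cd44, Cyba, Ncf4, Tlr9 and Trem1 (adjusted p 0.145, 0.0564, 0.115, 0.0696 and 0.0856 without Cxcr4 replicate 5), Cd300lb, Cd63 and Vcan (adjusted p 0.174, 0.0638 and 0.0567 without WT replicate 5) and Cd300ld, Ffar2, Ltb4r1 and Nlrp3 (adjusted p 0.175, 0.0628, 0.196 and 0.192 without WT replicate 8).

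**Figure D4:**
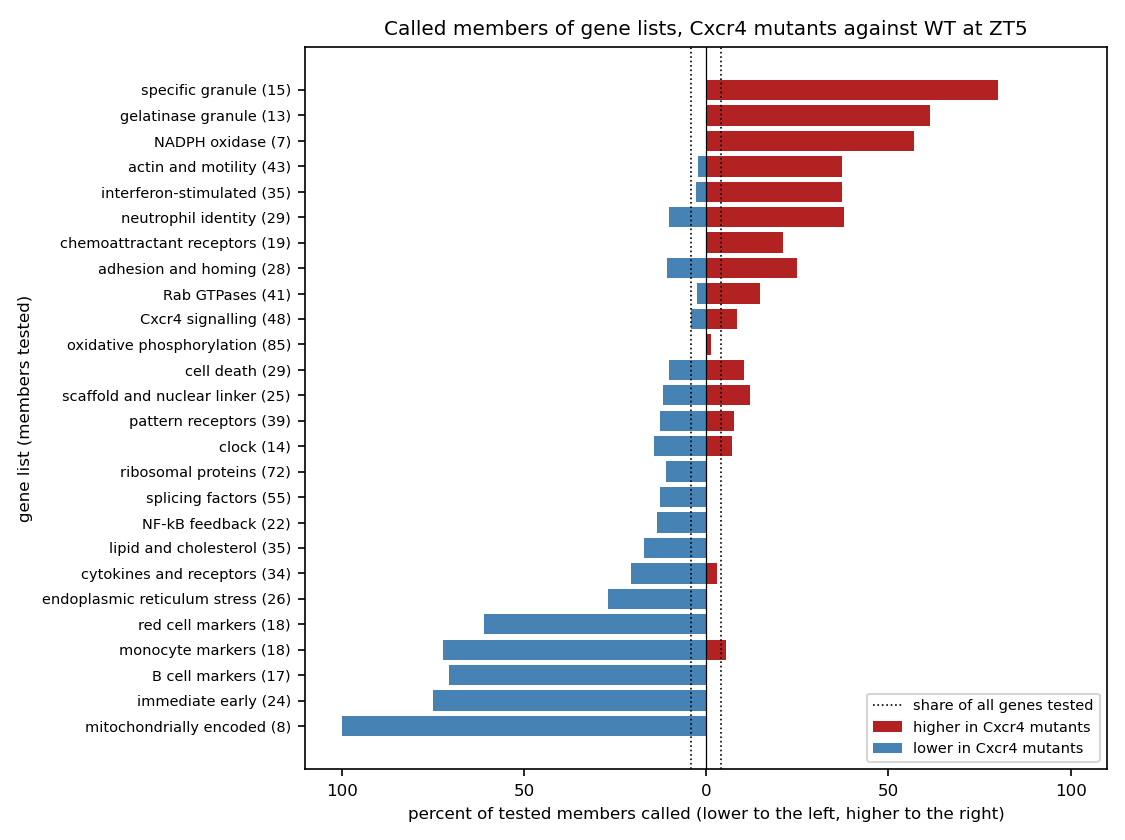
Percent of the tested members of 26 gene lists that rose (red, to the right) or fell (blue, to the left) in the Cxcr4 mutants against WT at ZT5, with the share of all genes tested as dotted lines, 4.05% and 4.15%. Lists of few members have coarse shares, and the marker lists of red cells, B cells and monocytes fall with the immediate early and mitochondrially encoded genes.

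Called genes of inflammatory signals mostly fell. Of 34 cytokines, chemokines and their receptors tested, 1 rose and 7 fell, with a median log2 fold change of -0.27, and in the Cre-matched comparison 0 rose and 10 fell, with a median of -0.53. The count of rises was 3 without WT replicate 8. The falls were Ifngr1 (-1.40), Cxcl2 (-5.48), Il6st (-4.67), Osm (-1.17), Il1b (-1.01), Tnfrsf1b (-0.90) and Ccl9 (-1.70). Il1b had 1678, 1366 and 1374 in the Cxcr4 mutants, against 2427, 3401 and 3118 in WT (log2 fold change -1.01, SE 0.19, adjusted p = 0.00118). Ifngr1, the binding chain of the interferon gamma receptor, had 156, 116 and 101 in the Cxcr4 mutants, against 303, 300.2 and 377 in WT (log2 fold change -1.40, SE 0.21, adjusted p = 7.06e-05). Groups did not overlap. Il1rn, the antagonist of the interleukin 1 receptor, rose, with 356, 331 and 377 in the Cxcr4 mutants, against 90.8, 193 and 149 in WT (log2 fold change 1.35, SE 0.22, adjusted p = 0.000146), and in the Cre-matched comparison its change was 0.06 (adjusted p = 0.912). Il6st, the shared chain gp130, changed by -4.67 against WT and -0.95 in the Cre-matched comparison. Of 22 NF-kB genes, Traf1 (-3.12), Nfkbia (-1.0) and Birc3 (-0.73) fell, a count that was 0 without Cxcr4 replicate 5 or WT replicate 5 and 1 without Cxcr4 replicate 4 or WT replicate 8 or 9. Nfkbia encodes the inhibitor that holds NF-kB in the cytosol. Brakes of MAP kinase signalling included Spred1 (-3.65), Dusp1 (-0.80) and Dusp2 (-2.85) among the falls and Dusp16 (1.10) as the 1 rise of 21, and the number that fell was 1 without Cxcr4 replicate 4 or 5 or WT replicate 9. Among 25 genes of mRNA decay, Zfp36 (-1.17), Btg2 (-0.83), Zfp36l1 (-1.35) and Zfp36l2 (-0.59) fell and Tob1 (1.18) rose. Zfp36 encodes tristetraprolin, which binds AU-rich elements of cytokine transcripts, and the number that fell was 2 without Cxcr4 replicate 4 or WT replicate 8. Eicosanoid genes held the strong fall of Ptgs2, a fall of Hpgd (-3.84), which degrades prostaglandins, and a rise of Tbxas1 (1.94), the thromboxane synthase, in 15 tested. The falls numbered 1 without Cxcr4 replicate 2 or 4 or WT replicate 5 and the rises 2 without WT replicate 8. The Hpgd change was 0.18 in the Cre-matched comparison. A library left out ended the call of Birc3, Dusp1, Hpgd, Zfp36l1 and Zfp36l2 (adjusted p 0.251, 0.245, 0.0851, 0.145 and 0.0979 without Cxcr4 replicate 4), Tnfrsf1b and Traf1 (adjusted p 0.0581 and 0.0705 without Cxcr4 replicate 5) and Ccl9, Dusp2 and Nfkbia (adjusted p 0.0735, 0.317 and 0.251 without WT replicate 5).

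Genes induced by glucocorticoids went both ways, with Anxa1, which encodes an annexin that dampens inflammation, at 2639, 3346 and 3053 in the Cxcr4 mutants, against 442, 688 and 752 in WT (log2 fold change 2.29, SE 0.19, adjusted p = 6.28e-09). Anxa1 was several times higher in each Cxcr4 library than in any WT library, while Per1 (-1.28), Nfkbia (-1.0) and Dusp1 (-0.80) fell, in 15 tested. That number was 1 without Cxcr4 replicate 4 or 5. Socs3, which limits the signal of G-CSF and interleukin 6, had 148, 70.0 and 130.4 in the Cxcr4 mutants, against 335, 821 and 551 in WT (log2 fold change -2.26, SE 0.28, adjusted p = 6.79e-06) and belongs to 13 genes of marrow retention and release, of which Mmp9 (1.26) and Cebpe (2.66) rose and Socs3 (-2.26) and Irf8 (-4.31) fell. In that list the number that rose was 1 without Cxcr4 replicate 4 or 5 or WT replicate 5 or 9. Not all calls held without 1 library, as for Dusp1 (adjusted p 0.245 without Cxcr4 replicate 4), Cebpe (adjusted p 0.105 without Cxcr4 replicate 5) and Irf8 and Nfkbia (adjusted p 0.0563 and 0.251 without WT replicate 5).

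Of 14 clock genes tested, 3 changed. The 2 Period genes that were called went in opposite directions. Per2 (ENSMUSG00000055866, chromosome 1, 91415982 to 91459324), which represses Bmal1 and Clock, had 183, 247 and 204 in the Cxcr4 mutants, against 24.3, 44.3 and 31.5 in WT (log2 fold change 2.66, SE 0.42, adjusted p = 0.000134). Per1 (ENSMUSG00000020893, chromosome 11, 69095217 to 69109960), which has the same role and also answers to glucocorticoids and cAMP, had 92.5, 54.5 and 87.6 in the Cxcr4 mutants, against 196, 198 and 166 in WT (log2 fold change -1.28, SE 0.23, adjusted p = 0.00048). Groups did not overlap for either gene, and no library of another group reached the range of the Cxcr4 libraries. Per2 had 12.4, 51.5 and 60.4 in the Bmal1 group and 34.4 and 59.0 in the Cxcr2 group, and Per1 had 164, 224 and 202 in the Bmal1 group and 210.2 and 201 in the Cxcr2 group. Csnk1d, a kinase that marks Period proteins for decay, fell (-0.80, adjusted p = 0.00475). The Cre-matched changes were 2.39 for Per2, -1.38 for Per1 and -1.28 for Csnk1d, all called. The reference there includes the Bmal1 group, so the loss of this clock gene is part of what those changes compare. All libraries of both comparisons were taken at 1 time of day, so no rhythm can be read from it.

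**Figure D5:**
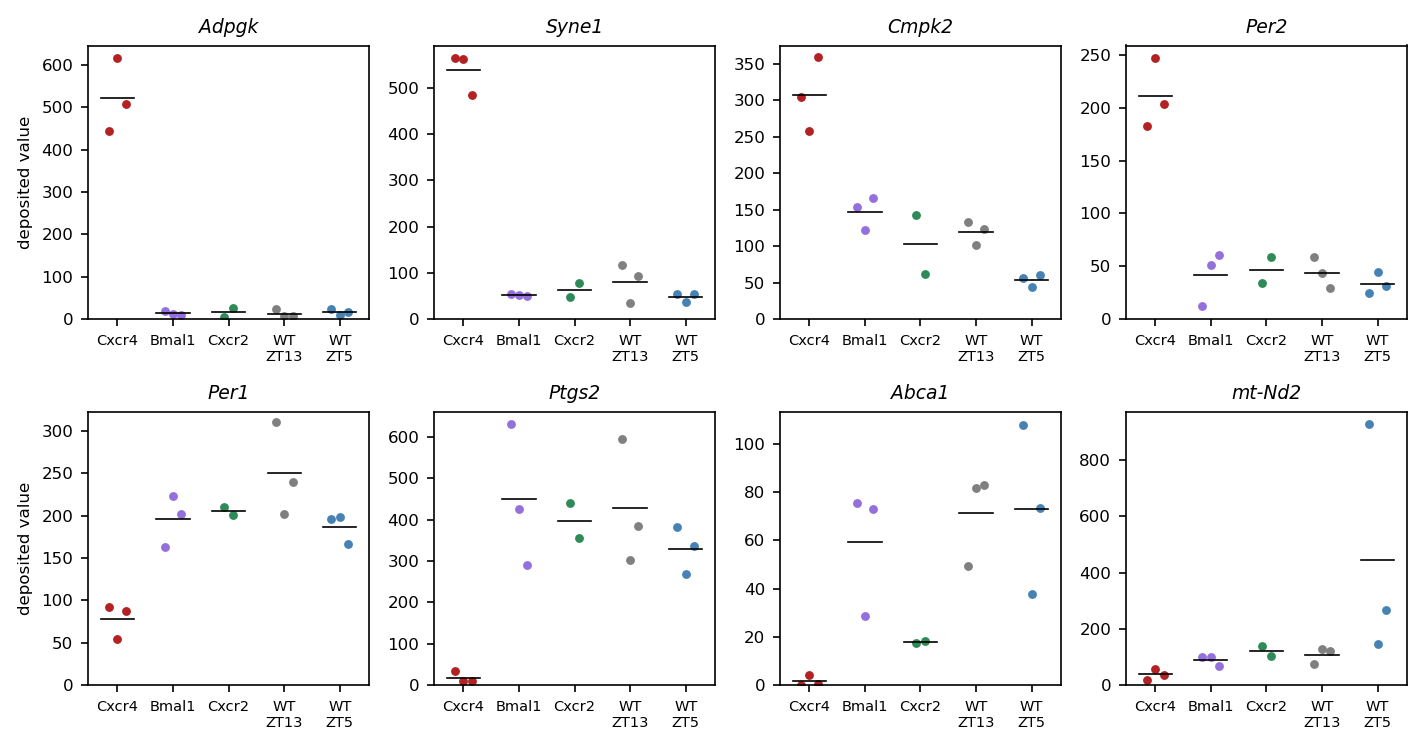
Deposited values of 8 genes in all 14 libraries (points) with group means (lines); mutant groups and the right-hand WT group were taken at ZT5. For Adpgk, Syne1, Cmpk2, Per2, Per1 and Ptgs2 the 3 Cxcr4 libraries lie apart from every other library, while mt-Nd2 is high in WT at ZT5 mainly in 1 library.

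Transcription factors of granulocyte development showed 3 rises, Lmo4 (1.29), Cebpe (2.66) and Nfe2 (0.93), and 5 falls, Zeb2 (-1.18), Irf8 (-4.31), Bach2 (-4.12), Mef2c (-2.43) and Foxo1 (-2.92), of 46 tested. Cebpe drives the late granule genes and Lmo4 is a LIM domain cofactor. Cebpe had 27.4, 38.2 and 52.5 in the Cxcr4 mutants, against 4.19, 7.60 and 4.33 in WT (log2 fold change 2.66, SE 0.72, adjusted p = 0.0205). Zeb2 had 233, 191 and 191 in the Cxcr4 mutants, against 447, 531 and 419 in WT (log2 fold change -1.18, SE 0.18, adjusted p = 8.42e-05). The groups did not overlap for either, and the adjusted p of Cebpe was 0.105 without Cxcr4 replicate 5. Irf8, Bach2, Mef2c and Foxo1 are also abundant in monocytes or B cells. Irf8 changed by -0.36 and Bach2 by -0.97 in the Cre-matched comparison, and neither passed there. The number that rose was 1 without Cxcr4 replicate 4 or 5 or WT replicate 5, and that of falls 3 without Cxcr4 replicate 4 or WT replicate 5. Genes of cell death went both ways, with Apaf1 (0.95), Cflar (0.74) and Xiap (0.65) higher and Bcl2l11 (-1.26), Bmf (-1.34) and Bcl2 (-3.97) lower of 29. Apaf1 forms the apoptosome, Xiap and Cflar block caspases, and Bcl2l11 and Bmf encode killer proteins of the Bcl2 family. The number that rose was 0 without Cxcr4 replicate 5 and 1 without Cxcr4 replicate 2 or 4 or WT replicate 8 or 9. Of 65 chromatin enzymes and remodellers, 4 rose and 2 fell, few enough to lie near the 4.05% and 4.15% of all genes tested. The rises were Ep300 (0.65), Brd3 (1.43), Baz2b (0.66) and Ncor1 (0.60) and the falls included Setd1a (-2.38). The counts were 1 without Cxcr4 replicate 2 or 5 and 2 without Cxcr4 replicate 4 or WT replicate 9 for the rises and 0 without WT replicate 5 and 1 without Cxcr4 replicate 2, 4 or 5 or WT replicate 9 for the falls. Of 55 splicing factors 0 rose and 7 fell, led by Mbnl1 (-1.30), Hnrnpa3 (-1.21), Srsf5 (-1.10) and Hnrnpab (-1.09). The count was 3 without WT replicate 5 and 4 without Cxcr4 replicate 2, with 1 without WT replicate 8 for the rises. The median of this list was -0.30 against WT and -0.04 in the Cre-matched comparison, where 0 rose and 3 fell. The Bmal1 and Cxcr2 groups had medians of -0.22 and -0.29 against the same WT libraries. Leaving out 1 library ended the call for Baz2b, Brd3 and Setd1a (adjusted p 0.0943, 0.0752 and 0.102 without Cxcr4 replicate 2), Cflar (adjusted p 0.147 without Cxcr4 replicate 4), Apaf1, Ep300 and Xiap (adjusted p 0.0687, 0.0512 and 0.124 without Cxcr4 replicate 5) and Bach2, Bcl2, Foxo1, Hnrnpab, Irf8, Mef2c, Ncor1 and Nfe2 (adjusted p 0.0962, 0.0786, 0.305, 0.0812, 0.0563, 0.191, 0.116 and 0.165 without WT replicate 5).

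Called genes of protein synthesis and folding mostly fell against WT. Of 26 chaperones and stress genes of the endoplasmic reticulum 0 rose and 7 fell, with a median log2 fold change of -0.78. In the Cre-matched comparison 0 rose and 2 fell, with a median of -0.37. The falls included Ppp1r15a (-1.88), which restores translation after stress and is also induced by growth signals, Hsp90b1 (-1.57), Canx (-1.17) and Atf6 (-1.16), and their number was 3 without Cxcr4 replicate 4 or WT replicate 9 and 4 without WT replicate 5. Ppp1r15a changed by -2.19 and Hsp90b1 by 0.01 in the Cre-matched comparison. Of 72 ribosomal protein genes 0 rose and 8 fell, with a median log2 fold change of -0.87, among them Rpl22 (-2.04), Rpl32 (-2.05) and Rpl8 (-1.22), while in the Cre-matched comparison 1 rose and 2 fell, with a median of -0.16. The number of falls was 2 without WT replicate 5, 4 without Cxcr4 replicate 2 or WT replicate 9, 5 without Cxcr4 replicate 5 and 17 without WT replicate 8, and ribosomal protein genes share reads with many processed copies. All 8 protein genes of the mitochondrial genome that were tested fell, at a median of -1.81. The medians of the Bmal1 and Cxcr2 groups against the same WT libraries were -1.86 and -1.62, and that of the Cre-matched comparison was 0.09. mt-Nd2 had 19.0, 58.0 and 36.5 in the Cxcr4 mutants, against 928, 144 and 267 in WT, with WT replicate 5 the highest, and the number of these genes that fell was 3 without WT replicate 5 and 4 without Cxcr4 replicate 2. mt-Nd5 changed by -2.26, mt-Nd1 by -2.57 and mt-Atp8 by -1.63. Of 85 respiratory chain genes of the nucleus only Ndufs4 was called, higher by 1.70, a count that was 0 without Cxcr4 replicate 2, 4 or 5 or WT replicate 5 or 9. Of 43 proteasome genes only Psme3 was called (-1.15), and the count was 0 without Cxcr4 replicate 2 or 4 or WT replicate 8 or 9. Of 17 heat shock genes limma called 0, edgeR 0 and DESeq2 1, with 2 at an unadjusted p under 0.05; Hspa1a was at -2.17 and Hspe1 at -2.02. With 1 library left out the test was no longer passed by Atf6 (adjusted p 0.0778 without Cxcr4 replicate 4), Rpl32, Rpl8 and mt-Atp8 (adjusted p 0.0518, 0.112 and 0.0574 without WT replicate 5) and Ndufs4 and Psme3 (adjusted p 0.16 and 0.087 without WT replicate 9).

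Metabolism and vesicle traffic gave mixed groups. Beside each count in them stand the 4.05% of all genes tested that rose and the 4.15% that fell. Of 35 genes of cholesterol and lipid handling 0 rose and 6 fell, with a median log2 fold change of -0.13. The falls were Apoe (-4.88), Abca1 (-5.14), Lrp1 (-4.61), Scarb1 (-3.80), Mylip (-0.81) and Abcg1 (-1.01), and in the Cre-matched comparison 5 rose and 4 fell, with a median of -0.15. Abcg1, which exports cholesterol beside Abca1, had 66.3, 85.8 and 70.5 in the Cxcr4 mutants, against 85.7, 202 and 193 in WT (log2 fold change -1.01, SE 0.30, adjusted p = 0.0328), and the groups overlapped. Mylip marks the LDL receptor for decay. The count of rises in this list was 1 without WT replicate 8. Glycolytic and hypoxia genes showed rises of Gpi1 (1.13), Aldoa (0.78) and Hk3 (0.91) and falls of Slc16a3 (-1.09) and Slc2a1 (-1.13), of 29 tested, with counts of rises of 1 without Cxcr4 replicate 5 or WT replicate 5 and 5 without WT replicate 9 and of falls of 1 without Cxcr4 replicate 4. Slc2a1 is a glucose transporter and Slc16a3 exports lactate. Of 41 Rab GTPases 6 rose, Rab3d (2.18), Rab6a (1.2), Rab44 (1.58), Rab11a (1.12), Rab5b (0.72) and Rab2a (0.77), and Rab7b fell (-3.27). Rab3d, a GTPase of secretory granules, had 245, 344 and 329 in the Cxcr4 mutants, against 45.0, 84.7 and 74.8 in WT (log2 fold change 2.18, SE 0.27, adjusted p = 5.02e-06), and all Cxcr4 libraries were higher. The count of Rab rises was 3 without Cxcr4 replicate 2 or 4 or WT replicate 5, and that of falls 0 without Cxcr4 replicate 4 or 5 or WT replicate 8 and 2 without WT replicate 5. Of 43 lysosome and autophagy genes Ctss (-2.41), Ctsb (-1.29), Gla (-2.09), Ctsa (-1.24) and Ctsz (-1.04) fell and Wipi1 (2.46) rose, and the number that fell was 3 without Cxcr4 replicate 4 or WT replicate 9, and the number that rose 0 without Cxcr4 replicate 4 or 5 or WT replicate 5 and 2 without WT replicate 8. The cathepsin gene Ctss is also a monocyte marker. Among 181 solute carriers 4 rose and 12 fell, with a median log2 fold change of -0.35. The rises were Slc7a11 (1.35), Slco4c1 (2.13), Slc25a24 (1.53) and Slc27a4 (1.2), and the falls were led by Slc4a1, Slc25a37 (-1.49), Slc16a3 and Slc38a1, of which Slc4a1 and Slc25a37 are red cell genes. Slc7a11 imports cystine for glutathione synthesis. Leaving out libraries gave 8 without WT replicate 8 for the rises and 6 without Cxcr4 replicate 5 for the falls. Of 18 genes of dividing precursors only Tuba1b was called (-2.48), a tubulin gene also used outside division, and the count was 2 without Cxcr4 replicate 2. Without a given library there was no call for Rab44 (adjusted p 0.0653 without Cxcr4 replicate 2), Ctsa, Rab11a and Slc2a1 (adjusted p 0.124, 0.0732 and 0.0627 without Cxcr4 replicate 4), Mylip (adjusted p 0.144 without Cxcr4 replicate 5), Aldoa, Hk3, Rab2a, Rab5b and Wipi1 (adjusted p 0.136, 0.204, 0.14, 0.231 and 0.178 without WT replicate 5), Rab7b (adjusted p 0.0628 without WT replicate 8) and Abcg1 and Ctsz (adjusted p 0.15 and 0.107 without WT replicate 9).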

How the data were processed

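The authors deposited a table of normalized signal for 11288 mouse genes in 14 libraries. It was made with CASAVA 1.8.2, cutadapt, RSEM 1.2.3 and GRCm38, per the submitters' processing notes, which give these no order; the normalization and the strand used in counting are not given in the sources used here. In each library every value is a whole multiple of the value of 1 read (tolerance 1e-06, 100% of values), so whole reads were recovered for the count tools. Of the IDs, 11194 matched a gene symbol (GENCODE vM21 annotation) and 94 did not. Replicate pairs differed by more than sampling noise (chi-square per degree of freedom 17.8 to 61.7).

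The test was limma 3.58.1 with an intensity trend (R 4.3.3) on log2(value + 1), fitted to all 14 libraries in 5 groups, for 11255 genes with a mean of at least 1 (33 lay below), with Benjamini-Hochberg adjustment and a threshold of 0.05. Tables were made with Python 3.11.15 and pandas 2.3.3. Alternatives were a pseudocount of 0.1, other filters, other scalings, only the groups compared, the replicate number as a block, single libraries left out, and edgeR 4.0.16 and DESeq2 1.42.0 on recovered reads. In data simulated for the comparison with WT, with 200 of 11255 genes changed, limma recovered 14% of changes of 1 and 53% of changes of 2 on the log2 scale, with 4 false calls. The changed genes were drawn from those with a mean of 3 or more on the log2(value + 1) scale. Reads were drawn independently, with no outlying library and no group difference in RNA of other cells. These figures therefore do not cover such differences.

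The libraries compared, the 46 gene lists and the rules were chosen with earlier results of these data known. Genes named are Cxcr4, the 15 called genes of largest change in each direction with no overlap of groups and a mean of 3 or more on the log2(value + 1) scale (outside granule and immediate early lists, predicted genes and pseudogenes), and per list up to 4 called members of smallest p, or 1 to 2 where none is called. Other named genes, and the genes whose promoters are shown, were picked once their values were known. The floor of 3 reads covers counting error only. A few genes and 1 of the lists are not reported here.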

Additional observations from a re-analysis of the deposited data

How the results depend on the processing

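The genes called against WT numbered 923 (456 higher and 467 lower). They were 800 with a pseudocount of 0.1, 916 with no filter, 862 with a mean of at least 10, 843 after quantile normalization, 924 with DESeq2 size factors, 894 with only the groups compared, 693 by edgeR and 1081 by DESeq2. With 1 library left out in turn they ranged over 596 to 945, with 292 to 495 higher and 298 to 450 lower. In the Cre-matched comparison 797 were called, and 879 with only the groups compared. With 1 library left out the Cre-matched calls ranged over 512 to 740, with 254 to 412 higher and 258 to 341 lower. The number in the labels as a replicate block gave 564 calls against WT (252 lower) and 716 in the Cre-matched comparison. The Cxcr4 mutants and WT share only number 5. Correlations of the deviations of libraries from their group means were near 0 for same-numbered and for other pairs. They show no pairing, but with 2 or 3 libraries a group they cannot exclude it. Under that block Itga2b, not called, stood at 0.24. Cxcr2, not called, stood at -0.20 after quantile normalization and ranged over -0.0735 to 0.30 with 1 library left out. Covariates added after the data were seen had the largest effect. The mean level of B cell markers left 155 calls (66 higher and 89 lower), that of monocyte markers 37 (20 and 17) and that of red cell markers 136 (93 and 43). Values that changed sign with the B cell covariate were 0.0212 for Scd1, 0.32 for mt-Atp8, 0.30 for mt-Nd5, 0.27 for Hspe1, -0.0395 for Cd44 and -0.41 for Cxcr2. With the monocyte covariate they were 1.47 for Mef2c, 0.10 for Ctsz, 0.34 for Evl, 0.37 for Cd74, 0.82 for Itgb1, -0.25 for Cxcr2, 1.41 for Pf4, 0.86 for Hpgd, 2.37 for Adgre4, 0.72 for Itga2b, 0.67 for Scd1, 0.63 for Aim2, 0.66 for Lrp1, 1.17 for Irf8, 1.66 for Grk3, 1.34 for Bcl2, -0.10 for Cd300lb, 0.56 for mt-Atp8, 0.29 for mt-Nd5, 0.79 for H2-Ab1 and 0.86 for Hspe1. With the red cell covariate they were 0.0607 for Ube2o, 0.39 for Abcg1, 0.0889 for Slc25a37, 1.23 for Itga2b and 0.20 for Psme3. The cause was not tested, and a covariate that differs between the groups also removes part of their difference. Of the 30 genes of largest change, Cxcr4 among them, 24 stayed called with every single library left out, 25 by edgeR, 25 by DESeq2 and 10 with the B cell covariate. Those 10 were 6 of the 15 largest rises and 4 of the 15 largest falls. With 3 libraries a group, changes of 1 on the log2 scale were often missed in simulated data (14% recovered), so a gene that did not pass is not shown to be unchanged.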

Other observations

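Many of the most clearly changed genes belong to none of the lists described above. Those of smallest p outside every list and outside the naming rule, 8 in each direction with predicted genes left out, were chosen after their values were seen. Mgst1, a microsomal glutathione transferase, had 461, 609 and 577 in the Cxcr4 mutants, against 69.5, 121 and 112 in WT (log2 fold change 2.46, SE 0.24, adjusted p = 1.5e-07). Lrrk2, a large kinase of leukocytes and of membrane traffic, had 776, 941 and 772 in the Cxcr4 mutants, against 298, 196 and 187 in WT (log2 fold change 1.89, SE 0.21, adjusted p = 1.42e-06). C3, the central complement protein, had 900.2, 988 and 909 in the Cxcr4 mutants, against 198, 322 and 337 in WT (log2 fold change 1.74, SE 0.21, adjusted p = 4.49e-06). For each of these every Cxcr4 library was above every WT library. Actn1, which encodes alpha-actinin and cross-links actin, changed by 1.68, Lims1, an adaptor of focal adhesions, by 2.15, Phactr2, which binds actin and protein phosphatase 1, by 2.29, Nhsl2 by 1.8 and Megf9 by 1.82. All 8 rose in the Cre-matched comparison too, by 1.29 for Megf9, 1.5 for Nhsl2, 1.25 for Actn1, 1.33 for C3, 1.36 for Phactr2, 2.15 for Lims1, 2.24 for Mgst1 and 2.27 for Lrrk2.

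Among those that fell, Steap4, a metalloreductase of inflamed tissue, had 70.7, 27.7 and 90.6 in the Cxcr4 mutants, against 383, 911 and 807 in WT (log2 fold change -3.52, SE 0.41, adjusted p = 2.42e-06). Mpeg1, which encodes the pore-forming protein perforin-2, had 549, 494 and 504 in the Cxcr4 mutants, against 988, 1135 and 1205 in WT (log2 fold change -1.10, SE 0.16, adjusted p = 4.31e-05). Csrnp1, a nuclear protein induced by growth signals, had 45.7, 16.3 and 28.1 in the Cxcr4 mutants, against 111, 166 and 99.5 in WT (log2 fold change -2.11, SE 0.30, adjusted p = 4.57e-05). No Cxcr4 library reached the WT range for these 3 genes. Ube2o, a ubiquitin enzyme with a known role in reticulocytes, changed by -3.02, Swap70, a regulator of actin and Rac, by -2.31, the tetraspanin gene Tspan13 by -1.43, Fam213a by -2.56 and Piwil2 by -3.91. The changes in the Cre-matched comparison were -3.13 for Steap4, -1.31 for Mpeg1, -2.05 for Csrnp1, -3.29 for Ube2o, -1.17 for Swap70, -1.94 for Tspan13, -3.50 for Fam213a and -4.24 for Piwil2, all called. Red cell markers fell in that comparison too, 15 of 18, so it does not hold red cell RNA constant. Against WT, Ube2o stood at 0.0607 with the red cell covariate. The part of other cells' RNA in these falls was not tested.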
